A study of Mus musculus with 12 samples.

Results

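The RNA of sucrose gradient fractions 5 to 8 was compared with the RNA of the whole testis extract that had been loaded on the gradient, to see which RNAs remain in particles of this size after EDTA. The comparison used 6 of the 12 libraries of the series, namely 3 INPUT libraries of the pooled fractions and 3 TOTAL libraries of the extract. All libraries came from testes of Mael-/- mice of the C57BL/6 strain at 3 months of age. The loss of Mael was shared by both groups and by every other library of the series, so no comparison of genotypes was possible. Lysates were made with a mild detergent and cleared by centrifugation, EDTA was added to 10 mM, and the extract was separated on a 10 to 50% sucrose gradient. Ribosomal RNA was depleted before stranded libraries of total RNA were made. The other 6 libraries were ORF1p immunoprecipitates (IP) and beads-only controls (BO) prepared from the same pooled fractions. They entered the fit of repeat subfamilies to estimate the spread, and the IP means linked the 2 gene tables.

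A sucrose gradient separates particles mainly by their size and density. EDTA binds the magnesium that holds the ribosomal subunits together, so that polysomes fall apart, and an mRNA is then carried by its own ribonucleoprotein (RNP) particle. MAEL belongs to the piRNA pathway, which silences transposable elements in male germ cells. Spermatocytes that lack it accumulate transcripts of LINE-1 (L1), a retrotransposon whose mRNA is bound by its own proteins, ORF1p among them.

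Mael itself was listed at a mean of 0.650 in TOTAL and 0 in INPUT, on the scale of normalized counts. Sycp1 and Sycp3, which encode parts of the synaptonemal complex of spermatocytes, had TOTAL means of 9433 and 5739. Transcripts of late spermatids were near the bottom of the scale, with TOTAL means of 22 for Prm1, 13.2 for Prm2 and 30.1 for Tnp1. Of 33 spermatid list genes, 11 passed the filter on low TOTAL, INPUT and IP means, where 13608 of all 20981 genes did. In bulk RNA such a low level does not tell fewer cells of a type from less RNA per cell. Somatic cells of the testis were represented, with Cyp17a1 of Leydig cells at 29894 and Sox9 of Sertoli cells at 1591 in TOTAL.

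Reads assigned to repeats numbered 6021800 to 7282171 in the TOTAL libraries and 3045169 to 3880641 in the INPUT libraries. The replicates numbered 1 stood apart in both groups. Names of ribosomal RNA held 1.96% of repeat reads in TOTAL replicate 1 against 6.82% and 16.3% in the others, and 4.25% in INPUT replicate 1 against 12.4% and 14.01%. Small nuclear RNA names went the other way, with 3.09% against 1.04% and 1.08% in TOTAL and 4.79% against 1.37% and 0.963% in INPUT. The labels speak of biological replicates, and nothing in the sources used here says whether each was a separate animal or pool, so p-values refer to the spread between these samples.

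The sequences of 6 short noncoding RNAs are shown first, since the results on small RNAs turn on them. The first 4 are the genes of the repeat names 7SK, BC1_Mm, HY1 and HY3, and Scarna6 and Scarna10 had the highest gene ratios. They are GENCODE transcripts on the GRCm38 assembly. The repeat names 7SK and BC1_Mm were called lower in INPUT, and HY1 and HY3 had lower values without passing the main test. A repeat name sums all its genomic copies, so the 4 transcripts were not tested by themselves. Rn7sk (chr9:78175334-78175633, minus strand) is 7SK RNA, which holds the elongation factor P-TEFb inactive, and its capitals mark GATC, letters known from the site that HEXIM proteins bind. Rny1 (chr6:47788069-47788180, minus strand) and Rny3 (chr6:47781624-47781725, plus strand) are Y RNAs, partners of the Ro60 protein, and their capitals mark GGTCCGA in the stem near the 5′ end. Bc1 (chr7:144914470-144914637, plus strand) is a small cytoplasmic RNA related to tRNA, and its capitals mark the B box of the internal promoter that RNA polymerase III uses. Scarna6 (chr1:87784556-87784820, plus strand) and Scarna10 (chr6:125186384-125186683, minus strand) are guide RNAs of Cajal bodies, and their capitals mark TGATGA, the box C of such RNAs.
Rn7sk: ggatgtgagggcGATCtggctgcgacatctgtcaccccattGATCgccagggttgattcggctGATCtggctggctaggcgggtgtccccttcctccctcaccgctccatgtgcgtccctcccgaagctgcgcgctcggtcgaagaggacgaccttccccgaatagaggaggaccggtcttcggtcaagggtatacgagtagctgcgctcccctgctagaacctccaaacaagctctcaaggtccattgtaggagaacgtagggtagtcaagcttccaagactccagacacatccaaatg
Rny1: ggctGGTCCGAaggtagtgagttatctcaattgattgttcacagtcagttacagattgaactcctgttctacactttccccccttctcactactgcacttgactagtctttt
Rny3: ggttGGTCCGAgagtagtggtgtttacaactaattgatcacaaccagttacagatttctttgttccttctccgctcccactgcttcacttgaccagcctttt
Bc1: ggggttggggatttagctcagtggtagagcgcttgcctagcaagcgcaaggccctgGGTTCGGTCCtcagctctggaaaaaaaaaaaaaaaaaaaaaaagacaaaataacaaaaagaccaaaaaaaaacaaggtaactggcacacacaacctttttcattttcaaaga
Scarna6: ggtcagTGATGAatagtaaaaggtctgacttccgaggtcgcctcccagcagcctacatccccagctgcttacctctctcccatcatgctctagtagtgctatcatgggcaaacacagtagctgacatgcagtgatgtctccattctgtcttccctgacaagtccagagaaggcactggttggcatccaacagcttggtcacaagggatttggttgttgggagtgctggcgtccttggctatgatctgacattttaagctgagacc
Scarna10: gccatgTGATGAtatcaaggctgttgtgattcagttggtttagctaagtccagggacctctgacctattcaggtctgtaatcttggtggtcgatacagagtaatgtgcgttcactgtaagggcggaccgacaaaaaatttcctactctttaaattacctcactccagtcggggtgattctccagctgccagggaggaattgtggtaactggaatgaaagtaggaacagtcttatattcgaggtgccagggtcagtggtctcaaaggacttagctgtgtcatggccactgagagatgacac
Rn7sk and Scarna10 are shown for their first 300 bases of 331 and 325. Each motif was searched by itself and on the transcript strand only. Among 9986 GENCODE transcripts of 102 to 331 bases, GATC was present in 47.3%, GGTCCGA in 0.27%, the B box in 0.12% and TGATGA in 10.6%. These matches describe the RNAs, and no relation between a motif and the INPUT to TOTAL ratio was tested.

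7SL RNA, the scaffold of the signal recognition particle, was the largest class of repeat reads in each TOTAL library, and SINEs were in each INPUT library. 7SL RNA held 38.1%, 51.6% and 44.8% of repeat reads in TOTAL replicates 1 to 3, and 16.96%, 18.7% and 18.4% in INPUT. 7SK RNA held 10.8%, 12.2% and 10.1% in TOTAL and 2.96%, 2.85% and 2.74% in INPUT. Names of tRNAs held 1.02%, 0.349% and 0.360% in TOTAL and 0.329%, 0.143% and 0.0411% in INPUT. In each of these classes every INPUT library lay below every TOTAL library.

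The shares of all 4 transposable element classes were higher in INPUT. SINEs, short elements copied by the L1 machinery, went from 12.8% ± 3.04 (SD, n = 3) to 25.6% ± 0.357 (SD, n = 3). LTR elements, the remains of endogenous retroviruses, went from 9.81% ± 2.76 to 21.4% ± 1.38. LINEs went from 6.21% ± 2.04 to 11.4% ± 1.18, and DNA transposons from 1.11% ± 0.301 to 2.34% ± 0.0793. No INPUT library overlapped a TOTAL library in any of the 4 classes. The exact two-sided permutation test gave p = 0.1 for each of these classes and for 7SL, 7SK and tRNA names, which is the smallest p that 3 against 3 libraries allow. Shares are bound to each other, so a smaller share of 7SL RNA raises every other class. Ribosomal RNA names overlapped between the groups, at 8.36% ± 7.29 in TOTAL and 10.2% ± 5.24 in INPUT (exact permutation p = 0.8, n = 3), and so did small nuclear RNA names, at 1.74% ± 1.18 and 2.38% ± 2.10 (exact permutation p = 0.7, n = 3). The widest 95% Wilson interval of any of these shares spanned 0.0986 percentage points, which covers counting error only.

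**Figure D1:**
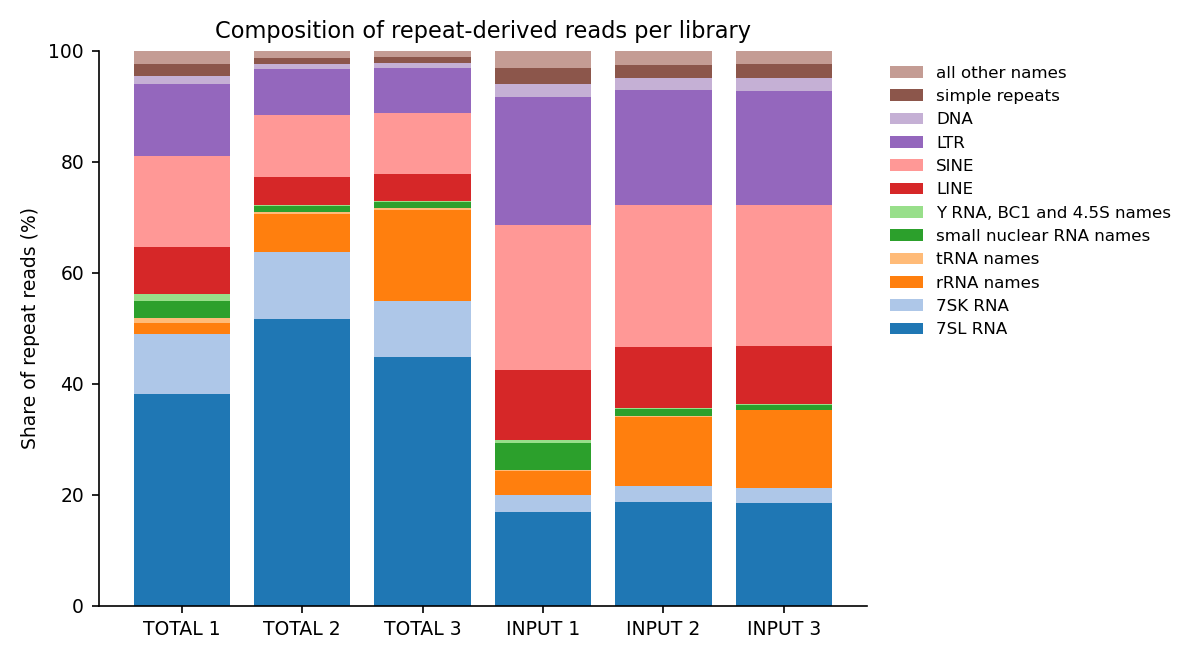
Share of repeat-derived reads (%, vertical axis) held by each class of repeat name in the 3 TOTAL and 3 INPUT libraries (1 bar per library, stacked to 100%). 7SL and 7SK RNA fill a larger part of each TOTAL bar than of any INPUT bar, and SINE, LTR, LINE and DNA elements a smaller one.

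Subfamilies were then compared on the authors' scale, in which the 75th percentile of the normalized counts is equal in every library. On this scale the median subfamily was at a log2 difference of 0.03 between INPUT and TOTAL. When the libraries were scaled to their totals instead, the median subfamily was at 1.03, so differences of single subfamilies are given relative to the middle of the subfamilies. A subfamily was called changed when its log2 fold change was beyond 1 in either direction and its limma adjusted p was under 0.05. Of 1180 subfamilies tested, 4 were called lower in INPUT (0.339%) and 0 were called higher (0%). At an unadjusted p under 0.05 and the same fold, 16 were lower and 0 higher, and edgeR's quasi-likelihood test on the recovered reads called 6 lower and 0 higher. An adjusted p under 0.05 at any fold was reached by 10 subfamilies higher in INPUT (0.847%) and 10 lower (0.847%). With the replicate number as a block these became 35 higher and 32 lower. In a fit of the 6 INPUT and TOTAL libraries with that block, added after seeing the data, they were 87 higher and 90 lower, and 17 were called lower. Without replicate 1 of both groups, also added after seeing the data, they were 1 higher and 8 lower, and 5 were called lower, 3 of them among the 4 of the fit of 12 libraries. The 4 names called in the fit of 12 libraries were 7SK, BC1_Mm, B2_Mm1a and (ATATG)n. The last is a simple repeat with 50.7, 36.2 and 47.9 normalized counts in TOTAL and 17.9, 21.2 and 13.6 in INPUT, and its call (limma adjusted p = 0.048) was lost without any 1 of the 6 libraries.

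7SK RNA, the nuclear RNA printed above, fell most strongly among the called subfamilies. Its normalized counts were 485275, 803117 and 665770 in TOTAL and 84798, 82406 and 80364 in INPUT. The 3 INPUT libraries were close to each other and far below the lowest TOTAL library. The log2 fold change was -2.95 ± 0.19 (SE, limma adjusted p = 2.7e-06). In the tables of group means per genomic copy, which were normalized apart from the subfamilies, 99.8% of the TOTAL mean of this name lay in 1 copy, and the same copy held 99.6% in INPUT.

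BC1_Mm, the small RNA that is transcribed by RNA polymerase III and kept in the cytoplasm, also fell. TOTAL libraries had 32754, 11639 and 10476 normalized counts and INPUT libraries 7937, 3596 and 4132. The groups did not overlap, although replicate 1 was high in each. The log2 fold change was -1.69 ± 0.37 (SE, limma adjusted p = 0.048). The call was lost without INPUT replicate 2 (-1.47, adjusted p = 0.18), INPUT replicate 3 (-1.57, adjusted p = 0.17) or TOTAL replicate 2 (-1.92, adjusted p = 0.068). It was also lost with library totals (-0.69, adjusted p = 0.10) and in a fit of the 6 INPUT and TOTAL libraries alone (adjusted p = 0.16), though not in that fit with the replicate block (adjusted p = 0.00019). Across loci, the leading copy held 88.2% of the TOTAL mean and 63.2% of the INPUT mean, and the remaining copies together had a log2 ratio of -0.45 where all copies gave -2.09.

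7SLRNA itself had 1718746, 3410729 and 2949159 normalized counts in TOTAL and 485266, 541231 and 540793 in INPUT. Every INPUT library was below every TOTAL library. Its log2 fold change of -2.31 ± 0.85 (SE) did not pass the limma test in the fit of 12 libraries (adjusted p = 0.18). In a fit of the 6 INPUT and TOTAL libraries alone the adjusted p was 0.019. The per-copy group means of this name, summed, gave a smaller decrease (log2 ratio -1.23). They held very little of the signal counted for the subfamily. The leading INPUT copy had 11.0% of the summed INPUT mean at only 18.8 counts, and 8.24 counts in TOTAL.

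Y RNAs, which bind Ro60 and take part in RNA quality control, were lower in INPUT within each replicate number, but their groups overlapped. HY1 had 5340, 423 and 615 normalized counts in TOTAL and 1004, 77.5 and 59.7 in INPUT. HY3 had 10624, 654 and 1236 in TOTAL and 2604, 98.0 and 104 in INPUT. Replicate 1 was the highest of its group for both RNAs. Neither passed the main limma test (log2 fold change -2.73 ± 1.07 SE, adjusted p = 0.22, and -2.77 ± 1.18 SE, adjusted p = 0.25). With the replicate block neither was called in the fit of 12 libraries (limma adjusted p = 0.10 and 0.13), while both were called lower in a fit of the 6 INPUT and TOTAL libraries with that block, added after seeing the data (adjusted p = 0.00016 and 0.00084). In the 6 libraries without a block neither was called (adjusted p = 0.33 and 0.39). Both were called lower once replicate 1 of INPUT and TOTAL was left out, an alternative chosen after seeing the data (HY1 -2.89, limma adjusted p = 0.020, and HY3 -3.15, limma adjusted p = 0.0026), and also without INPUT replicate 1 alone (-4.02, adjusted p = 0.045, and -4.33, adjusted p = 0.041). Without any 1 of the other 5 libraries neither was called, and without TOTAL replicate 1 the values were -1.60 (limma adjusted p = 0.47) for HY1 and -1.59 (limma adjusted p = 0.54) for HY3. Without INPUT replicate 2 they were -2.18 and -1.97, and without INPUT replicate 3 they were -1.99 and -2.01.

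Of 15 tRNA names tested, 12 were below 0, where 530 of all 1180 subfamilies were. More than 2-fold lower at an unadjusted p under 0.05 were 3 of the 15, where 16 of the 1180 were, and none passed an adjusted p of 0.05 with limma. tRNA-Ser-TCA(m) had 43656, 21719 and 22273 normalized counts in TOTAL and 7749, 2792 and 0 in INPUT. The groups did not overlap, but with INPUT replicate 3 at 0 the fitted change depends on the pseudocount (limma adjusted p = 0.33).

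Small nuclear and nucleolar RNA names from U1 to U17 did not pass the test. U1, which recognizes the 5′ splice site, had 31235, 31378 and 29384 normalized counts in TOTAL and 26989, 14686 and 7897 in INPUT. The groups did not overlap, yet the INPUT libraries were spread widely (log2 fold change -1.07 ± 0.60 SE, limma adjusted p = 0.40). For U6, the catalytic RNA of the spliceosome, the log2 fold change was 0.00 ± 0.23 (SE, limma adjusted p = 0.999). Of the 10 tested names, spliceosomal and nucleolar RNAs together, 9 were below 0 and none passed an adjusted p of 0.05 with limma. U2, U3, U4 and U5, which overlapped between the groups, and U6 turned positive when libraries were scaled to their totals. U6 was then called higher (1.001, limma adjusted p = 0.011), as were 637 of all 1180 subfamilies.

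**Figure D2:**
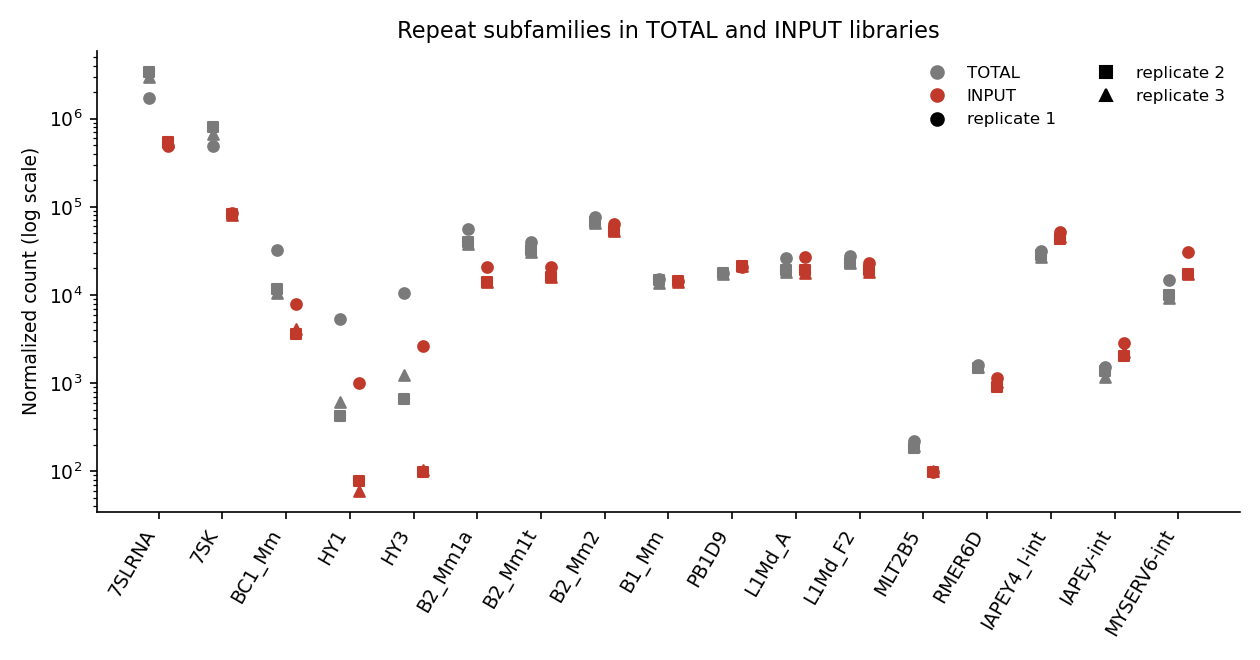
Normalized count (vertical log axis) of 17 repeat subfamilies in each TOTAL (grey) and INPUT (red) library, with the replicate number as the shape of the point. 7SK, 7SLRNA, BC1_Mm and B2_Mm1a are lower in every INPUT library, B1_Mm and L1Md_A overlap, and IAPEY4_I-int, IAPEy-int and MYSERV6-int are higher in every INPUT library.

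Among transposable elements, 1 of the 938 subfamilies tested was called lower and 0 were called higher. The called subfamily was B2_Mm1a, a young rodent SINE derived from a tRNA and transcribed by RNA polymerase III. It had 55375, 39991 and 38201 normalized counts in TOTAL and 20587, 14042 and 14195 in INPUT. The INPUT libraries were all far below the TOTAL libraries, and the log2 fold change was -1.46 ± 0.23 (SE, limma adjusted p = 0.0065). When libraries were scaled to their totals the call was lost (-0.45, adjusted p = 0.24). The signal was spread over its copies, since the leading one of 12770 copies held 1.63% of the TOTAL mean. B2_Mm1t, the subfamily nearest to it by name, had 40049, 32314 and 30538 in TOTAL and 20904, 15798 and 16049 in INPUT, which gave -0.97 ± 0.19 (SE, limma adjusted p = 0.031). That pass held without INPUT replicate 1 and was lost without any 1 of the other 5 libraries (limma adjusted p up to 0.15). B2_Mm2 was lower by less, at -0.31 ± 0.12 (SE, limma adjusted p = 0.22), with no overlap of its libraries.

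The loss of B2_Mm1a could be read without any scaling between libraries, as a ratio to B1_Mm within each library. B1_Mm is a SINE derived from 7SL RNA. The log2 ratio of B2_Mm1a to B1_Mm was 1.87, 1.44 and 1.47 in TOTAL and 0.51, -0.05 and 0.02 in INPUT, a difference of -1.44 with no overlap (exact permutation p = 0.1, n = 3, the smallest possible). The ratio of B2_Mm2 to B1_Mm differed by -0.30 and that of 7SLRNA to B1_Mm by -2.29, both without overlap and with the same exact permutation p. B1_Mm stood at 15113, 14761 and 13746 normalized counts in TOTAL and 14491, 14556 and 14035 in INPUT, a log2 fold change of -0.02 ± 0.07 (SE, limma adjusted p = 0.93).

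Most other SINEs were slightly above the middle of the subfamilies. Of 35 SINE subfamilies, 31 had a positive log2 fold change, against 650 of all 1180 subfamilies, and their median was 0.18. INPUT libraries lay wholly above TOTAL libraries for 26 SINE subfamilies, where 14.7% of all subfamilies did so, and wholly below for 3, where 10.5% did. The 3 were the B2 subfamilies described above. PB1D9, a relative of B1, had 17540, 17552 and 17415 normalized counts in TOTAL and 20965, 21109 and 21129 in INPUT. Its replicates were closely grouped, and it passed the test with a small change (0.27 ± 0.06 SE, limma adjusted p = 0.048). PB1D7 and PB1D11 passed in the same way, at 0.28 and 0.26. All 3 passes were lost without any 1 of the 6 libraries (limma adjusted p between 0.087 and 0.18). With the replicate block these 3 names had limma adjusted p between 0.010 and 0.015. With that block 11 SINE subfamilies passed upward and 2 downward, where 35 and 32 of all 1180 subfamilies did. The 4 subfamilies of MIR, an old SINE, were all positive, from 0.18 to 0.19.

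L1 subfamilies were close to the middle of the subfamilies, and none passed the limma test without a block. L1Md_A, one of the young L1 subfamilies, had 26309, 19342 and 18284 normalized counts in TOTAL and 27258, 18980 and 17934 in INPUT. The groups overlapped, and replicate 1 was the highest in each. The log2 fold change was 0.00 ± 0.20 (SE, limma adjusted p = 0.99). L1Md_T, also young, was at -0.12 ± 0.22 (SE, limma adjusted p = 0.83) and L1Md_Gf at -0.39 ± 0.25 (SE, limma adjusted p = 0.48).

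L1Md_F2 and L1Md_F, older L1 subfamilies of the mouse, were lower once replicate numbers were taken into account. L1Md_F2 had 27753, 22956 and 22821 normalized counts in TOTAL and 23093, 19353 and 18235 in INPUT. The INPUT library was lower within each replicate number, while the groups overlapped through replicate 1. The log2 fold change was -0.28 ± 0.12 (SE), with a limma adjusted p of 0.25 without and 0.0094 with the replicate block. L1Md_F was at -0.38 ± 0.14 (SE), with adjusted p = 0.18 and 0.010. Within libraries, L1Md_A relative to L1Md_F2 stood at -0.08, -0.25 and -0.32 on the log2 scale in TOTAL and 0.24, -0.03 and -0.02 in INPUT. The difference of 0.28 was without overlap (exact permutation p = 0.1, n = 3). The ratio of L1Md_T to L1Md_F2 differed by 0.16 with overlap (exact permutation p = 0.3, n = 3, which ignores the replicate numbers). Within each replicate number it was higher in INPUT, at 0.20, -0.08 and -0.07 in TOTAL and 0.40, 0.03 and 0.10 in INPUT.

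Across the L1 family, 87 of 130 subfamilies tested were below 0, against 530 of all 1180, with a median of -0.07. The 6 L1Md subfamilies were all below 0, L1Md_Gf farthest (-0.39) and L1Md_A barely. Of the 21 Lx subfamilies, ancient rodent L1s, 18 were below 0. With the replicate block, 12 of the 130 L1 subfamilies passed an adjusted p of 0.05 downward and 0 upward in limma. Of all 1180 subfamilies, 32 passed downward and 35 upward with that block. Without it 0 L1 subfamilies passed in either direction. The signs in this family are relative to the middle of the subfamilies, and L1Md_A, L1Md_T, L1Md_Gf, L1Md_F and L1Md_F2 all turned positive when libraries were scaled to their totals. L1Md_A was then called higher (1.003, limma adjusted p = 0.015), as were 637 of all 1180 subfamilies.

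Of 581 LTR subfamilies tested, 5 passed an adjusted p of 0.05 upward and 5 downward in limma, none at a 2-fold change. These counts are near the background, since 0.847% of all subfamilies passed in each direction. With the replicate block 19 passed upward and 9 downward in limma, where 35 and 32 of all 1180 subfamilies did. Of the 9, 1 (MER50B) was more than 2-fold lower. The 5 upward passes were all lost without TOTAL replicate 3 and without replicate 1 of both groups, where 0 of the 9 transposable elements that passed upward in the fit of 12 libraries still did. The tenth name that passed upward, MER124, whose class is marked as uncertain, passed in each of these omissions (0.60, limma adjusted p = 0.0065, and at most 0.0497 with libraries left out). IAPEY4_I-int, the internal part of an intracisternal A particle, had 31860, 28178 and 26917 normalized counts in TOTAL and 51441, 43646 and 45822 in INPUT. All INPUT libraries were higher, by a log2 fold change of 0.70 ± 0.13 (SE, limma adjusted p = 0.017). Its adjusted p was between 0.029 and 0.080 when libraries were left out, and it was also above 0.05 without INPUT replicate 3 or TOTAL replicate 2. The leading of its 90 copies held 19.15% of the TOTAL mean and 18.4% of the INPUT mean. IAPLTR3-int was higher by 0.50 ± 0.09 (SE, limma adjusted p = 0.017) and MERVL_2A-int by 0.37 ± 0.07 (SE, limma adjusted p = 0.031). The other two that passed upward were RLTR19-int (0.38, limma adjusted p = 0.011) and MLT1F2-int (0.74, limma adjusted p = 0.017). IAPLTR3-int and MLT1F2-int also lost their pass without INPUT replicate 3, and MERVL_2A-int kept it only without TOTAL replicate 1. All 8 subfamilies named MERVL or MT2, elements best known from the early embryo, had positive values, from 0.05 to 0.37, where 650 of all 1180 subfamilies did, and MERVL_2A-int was the 1 that passed the test.

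The internal sequences MYSERV6-int, IAPEy-int, IAPEz-int and ERVB4_1-I_MM-int were higher in every INPUT library. They did not pass the main limma test, while they passed it with the replicate block. MYSERV6-int had 14633, 9894 and 9202 normalized counts in TOTAL and 30539, 17383 and 17329 in INPUT. Its log2 fold change was 0.93 ± 0.26 (SE), with an adjusted p of 0.090 without and 0.00047 with the block. It was called higher when TOTAL replicate 1 was left out (1.13, adjusted p = 0.046). The per-copy group means of this name, summed, did not show the difference (log2 ratio 0.05). They held only a small part of its signal, as the leading copy, with 7.73% of the summed INPUT mean, averaged 70.7 counts. IAPEy-int was at 0.79 ± 0.20 (SE), with adjusted p = 0.076 and 0.0020. IAPEz-int was at 0.45 ± 0.11 (SE), with adjusted p = 0.061 and 0.0037. ERVB4_1-I_MM-int was at 0.64 ± 0.17 (SE), with adjusted p = 0.088 and 0.012, and 1 copy held 85.0% of its INPUT mean. MMERVK10C-int overlapped between the groups, at 0.21 ± 0.20 (SE, limma adjusted p = 0.67). Its ratio to IAPEz-int within libraries was lower in INPUT by 0.23 on the log2 scale (INPUT minus TOTAL -0.23) without overlap (exact permutation p = 0.1, n = 3).

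MLT2B5, RMER6D, RMER6C, RLTR21 and LTR37-int were the LTR names that passed the test downward. MLT2B5 had 218, 182 and 193 normalized counts in TOTAL and 98.6, 97.1 and 101 in INPUT. Its libraries were tightly grouped and well apart (-0.99 ± 0.15 SE, limma adjusted p = 0.0065). RMER6D was at -0.59 ± 0.09 (SE, limma adjusted p = 0.0065), RMER6C at -0.47 ± 0.07 (SE, limma adjusted p = 0.0065), RLTR21 at -0.57 ± 0.10 (SE, limma adjusted p = 0.017) and LTR37-int at -0.76 ± 0.16 (SE, limma adjusted p = 0.035). RMER6C and RMER6D passed whichever of the 6 libraries was left out. MLT2B5 did too, but not without replicate 1 of both groups (limma adjusted p = 0.052). RLTR21 was not past 0.05 without INPUT replicate 2, INPUT replicate 3 or replicate 1 of both groups, and LTR37-int passed only without INPUT replicate 1. The summed per-copy means gave log2 ratios of 0.09 for MLT2B5, 0.13 for RMER6D and -0.04 for RMER6C. These decreases were thus seen in the subfamily counts only. The per-copy means held only part of the subfamily signal, so the 2 measures do not cover the same reads. For MLT2B5 the leading copy, with 26.3% of the summed INPUT mean, averaged 6.06 counts. For RLTR21, 1 copy held 86.5% of the TOTAL mean, and without that copy the summed loci were at a log2 difference of 0.16 rather than -0.88.

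**Figure D3:**
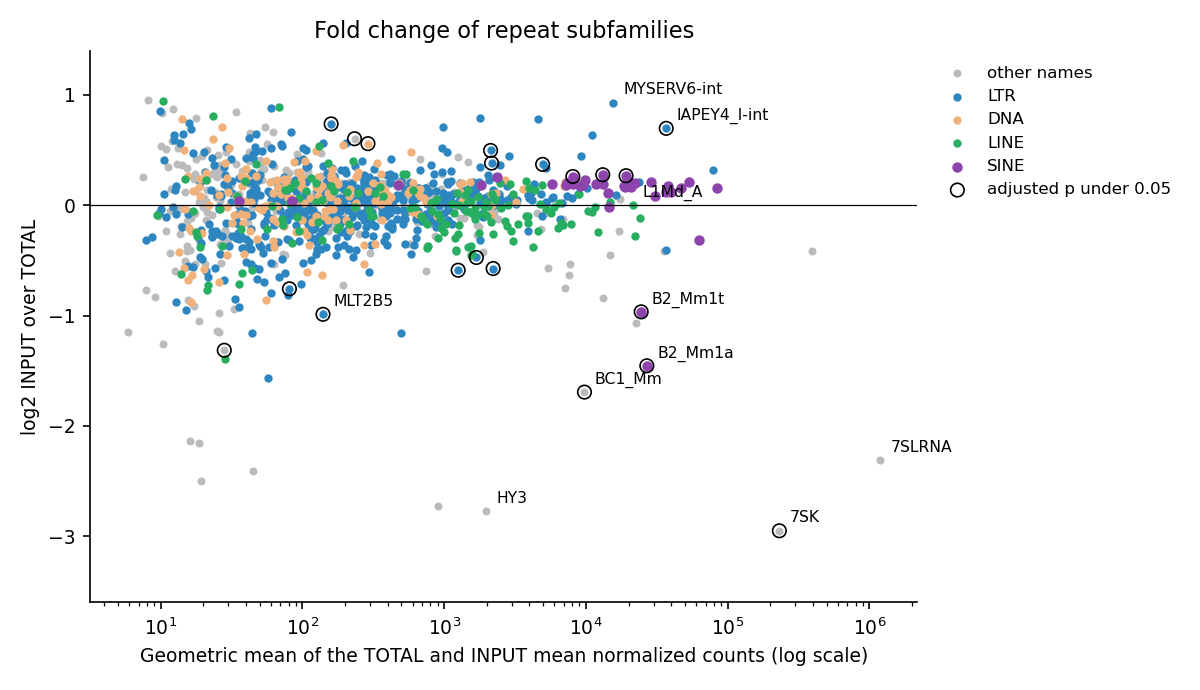
log2 fold change of INPUT over TOTAL (vertical axis) against the geometric mean of the 2 group means (horizontal log axis) for repeat subfamilies, coloured by class, with a ring around those at a limma adjusted p under 0.05. Most points lie within 1 log2 unit of 0, and 7SK, HY3, 7SLRNA, BC1_Mm and B2_Mm1a are labelled among the lower ones. 1 of 1180 subfamilies, tRNA-Ser-TCA(m), is below the axis.

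The rest of the results concern genes. For these the tables hold a mean per group and no value per library, so the ratios below have no replicate error and no test. A ratio is log2 of INPUT over TOTAL, linked through the IP means that both tables share. Of 20981 genes listed, 13608 had all means above 10. Of the 7373 others, 574 were above 10 in TOTAL and not in INPUT, and 192 in INPUT and not in TOTAL. The median gene was at -0.13 and the genes ranged from -3.34 to 3.06. A ratio beyond 1 in either direction, a 2-fold difference, was found upward for 309 genes (2.27%) and downward for 2294 (16.9%). When ratios were centred on the median gene, the split was 615 upward and 1882 downward.

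Transcript length went with the ratio more closely than the other properties examined. Genes were divided into 10 groups by their longest annotated transcript. The shortest group, up to 1477 bases, had a median ratio of -1.33, and 65.6% of them were more than 2-fold lower in INPUT. The median then increased in each step of length, to -0.17 for 3002 to 3470 bases, 0.19 for 4567 to 5388 bases and 0.59 for the longest group. In the longest group 0.813% of genes were more than 2-fold lower and 11.2% more than 2-fold higher. Across 13528 genes with an annotated transcript, Pearson's r with log2 length was 0.63 and Spearman's rho 0.65, a description across genes that are not independent replicates. The same r was 0.67 in protein-coding genes and 0.38 when the median transcript of a gene was used in place of the longest.

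GC content and abundance went with the ratio far less. Pearson's r across genes was 0.07 with the GC content of the transcript and -0.04 with the log2 TOTAL mean. Once both GC content and ratio were taken relative to the median of genes of like length (50 groups), r with GC content was 0.31. That relative value is given below for the lists of mRNAs, and it was chosen after seeing the data.

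**Figure D4:**
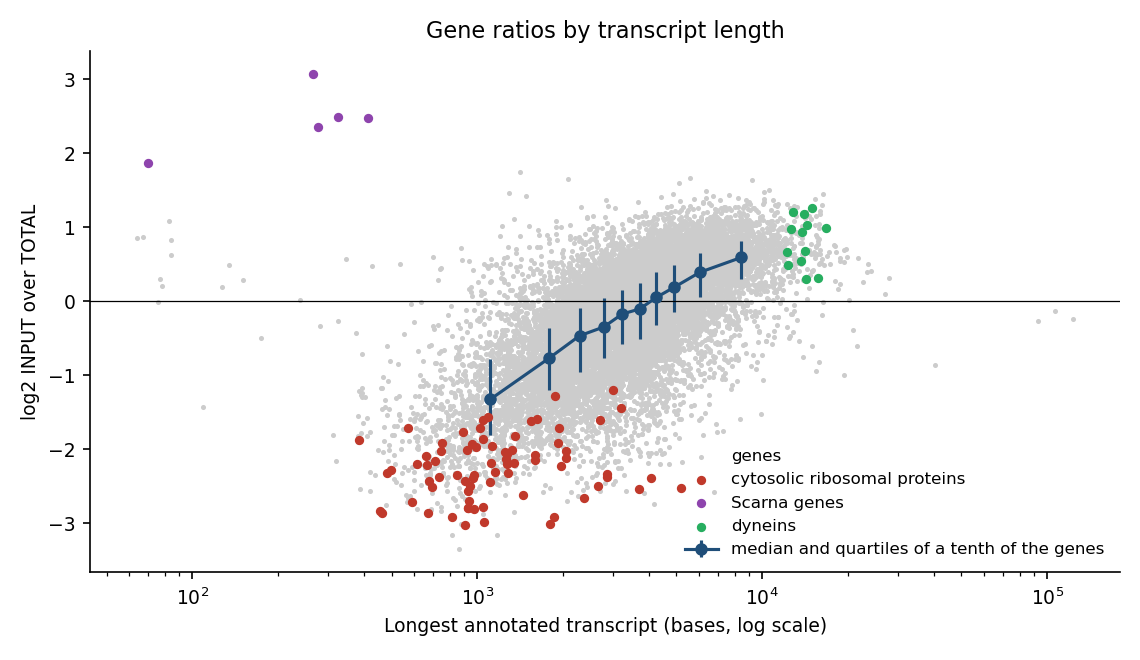
log2 ratio of INPUT over TOTAL (vertical axis) against the longest annotated transcript (bases, horizontal log axis) for 13528 genes (grey), with the median and quartiles of each of 10 groups by length (blue). The blue medians climb from -1.33 to 0.59, ribosomal protein genes (red) lie under the line, Scarna genes (purple) lie far above it at short lengths, and dynein heavy chains (green) stand at the long end.

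The 10 lowest ratios among genes with means above 100 were Tmsb4x, Tpt1, Tsx, Rps26, Rps12, Rpl23, Rpl21, Rpl36a, Txn1 and Rps29. Tmsb4x encodes thymosin beta 4, a small protein that binds actin monomers, and went from a TOTAL mean of 16655 to an INPUT mean of 1647 (ratio -3.34). Tpt1 encodes the translationally controlled tumor protein, and its mRNA went from 7991 to 904 (ratio -3.16). Tsx, a gene near Xist on the X chromosome that is active in testis, went from 3692 to 416 (ratio -3.16). Txn1, which encodes thioredoxin, was at -2.87.

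mRNAs of cytosolic ribosomal proteins formed the lowest of the lists. All 74 of the 79 listed genes that passed the filter were more than 2-fold lower in INPUT, where 16.9% of all genes were, with a median of -2.22. Their range ran from -3.02 for Rps26 to -1.19 for Rpl18. Rps26 had means of 1368 in TOTAL and 170 in INPUT, and Rpl18 had 2386 and 1047. These mRNAs are short, with a median longest transcript of 1054 bases, but they were also below other genes of like length, by a median difference of -1.002 with 0 of 74 above 0 where 49.9% of all genes were.

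Translation factors were lower as well, with 17 of 42 more than 2-fold lower, where 16.9% of all genes were, and a median of -0.91. The range was wide, from Tpt1 to Eif4g1, the long mRNA of the scaffold protein of cap-dependent initiation, which went from 7223 to 12842 (ratio 0.83). Tpt1 was counted in this fixed list, although its product, the translationally controlled tumor protein, is not named as a translation factor. Relative to genes of like length the median of the list was -0.43.

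Nuclear genes of the respiratory chain had a median of -1.85, and 68 of the 78 that passed were more than 2-fold lower, where 16.9% of all genes were. Uqcrb, a small subunit of complex III, was the lowest at -2.71, and Uqcrc1, a core subunit of the same complex, the highest at -0.26. Mitochondrial ribosomal proteins had a median of -1.42, with 61 of 76 more than 2-fold lower, from Mrps18c at -2.65 to Mrps27 at 0.09. Proteasome subunits had a median of -1.37, with 27 of 37 more than 2-fold lower, from Psmb8, a catalytic subunit of the immunoproteasome, at -2.06 to Psmd2, a subunit of the regulatory particle base, at 0.31. Relative to genes of like length, the medians of these 3 lists were -0.45, -0.65 and -0.48.

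Replication-dependent histone mRNAs, which end in a stem-loop in place of a poly(A) tail, were lower by an amount typical of short transcripts. Of the 49 that passed, 40 were more than 2-fold lower, where 16.9% of all genes were, with a median of -1.55. The median relative to genes of like length was 0.00, and 24 of 49 were above 0, where 49.9% of all genes were. Hist1h3d was the lowest at -2.40, and Hist1h1t, the linker histone of spermatocytes, the highest at -0.27. Paralogous histone genes share sequence, so reads may have been split between them or left out.

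Housekeeping genes often used as references were lower too. Gapdh went from 1841 in TOTAL to 509 in INPUT (ratio -1.86) and Actb from 36570 to 14911 (ratio -1.30). Gapdh was the lowest of the 20 glycolysis genes, which had a median of -0.79, and Eno3 the highest at 0.41. Among actins and tubulins, 6 of 22 were more than 2-fold lower, and Tuba1b was the lowest at -1.73. The highest, and the only 1 above 0, was Actr5 at 0.62, an actin-related protein counted in this fixed list. Chaperones had a median of -0.51 with 18 of 70 more than 2-fold lower, where 16.9% of all genes were, from the mitochondrial co-chaperonin Hspe1 at -2.11 to Dnajc16 at 0.95. The medians of glycolysis genes, actins and tubulins, and chaperones were -0.28, -0.24 and -0.25 relative to genes of like length.

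The 10 highest ratios among genes with means above 100 were Scarna6, Scarna10, Scarna2, Firre, Helz2, Ptprf, Abca7, Fmnl3, Atg2a and Piezo1. The first 4 are noncoding RNAs, described below, and the other 6 encode proteins. Ptprf, a receptor tyrosine phosphatase, went from 1238 to 3351 (ratio 1.43), Piezo1, a very large mechanically gated channel, from 378 to 998 (ratio 1.396), and Atg2a, a lipid transfer protein of autophagy, from 842 to 2227. Helz2, Abca7 and Fmnl3 were at 1.47, 1.42 and 1.404.

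Dynein heavy chains, the motor subunits of cilia and of microtubule transport, were higher in all 13 genes that passed, with a median of 0.93. Dync2h1 was the lowest at 0.31 and Dnah17 the highest, with means of 87.0 and 209, and 4 of 13 were more than 2-fold higher, where 2.27% of all genes were. Kinesins, the other family of microtubule motors, had a median of 0.50 with 36 of 40 above 0, where 43% of all genes were, from Kif2b at -0.97 to Kif21b at 1.25. Collagens and laminins had a median of 0.48 with 44 of 50 above 0, from Col6a5 at -0.72 to Col2a1 at 1.60. The last rested on low means of 13.1 and 40.0. Relative to genes of like length these medians were 0.32, 0.24 and 0.10.

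Germ cell lists were spread around the middle, and several had positive medians relative to genes of like length. Meiotic recombination genes had a median of 0.35, with 17 of 25 above 0 and 2 more than 2-fold lower, where 43.0% and 16.9% of all genes were. Mnd1, which helps strand invasion, was the lowest at -1.68, and Msh4, which stabilizes crossover intermediates, the highest at 0.88. Relative to genes of like length, 19 of 25 were above 0 (median 0.38), where 49.9% of all genes were. Genes of the synaptonemal complex and axis had a median of -0.20, from Syce3 at -1.54 to the meiotic cohesin Stag3 at 1.18, and 12 of 16 were above 0 relative to genes of like length (median 0.54).

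Of the piRNA pathway, 23 of 24 listed genes passed, Mael being the exception. Their median was 0.23, with 16 of 23 above 0 against 43.0% of all genes. Piwil2, the PIWI protein MILI, went from 2997 to 6186 (ratio 1.04), and Mov10l1, the helicase that starts piRNA production, from 2558 to 4884 (0.93). Fkbp6, a co-chaperone of PIWI proteins, was the lowest at -1.22, with means of 2146 and 929. Relative to genes of like length 19 of 23 were above 0 (median 0.36), where 49.9% of all genes were. Genes of DNA methylation and transposon silencing had a median of 0.43 (0.38 relative to genes of like length), with 12 of 18 above 0 against 43.0% of all genes, from Tex19.2 at -0.70 to the histone methyltransferase Setdb1 at 0.93.

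Components of RNA granules and of mRNA decay did not move together. Stress granule and P-body genes had a median of 0.16, from Ybx1, an abundant mRNA-binding protein, at -1.30 to Edc4, a scaffold of decapping, at 1.28. CCR4-NOT deadenylase genes had a median of -0.48, with 4 of 16 above 0, where 43.0% of all genes were, from Cnot7 at -0.94 to the long Cnot1 at 0.92. Germ cell regulators of translation had a median of 0.03, from Pabpc2 at -1.55 to Gm1564 at 0.96, and spermatocyte kinases and cyclins one of 0.16, from Cdk1 at -1.22 to Top2a at 0.90. These 4 lists had medians of -0.04, -0.16, 0.13 and 0.29 relative to genes of like length. Top2a was counted in the fixed list of kinases and cyclins, although it encodes a DNA topoisomerase.

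Transcripts of somatic testis cells had medians below that of all genes (-0.13). Leydig cell genes had a median of -0.69 with 5 of 18 more than 2-fold lower, where 16.9% of all genes were, and Fdx1, an electron carrier of steroid synthesis, was the lowest at -2.10. Peritubular, vessel and macrophage genes had a median of -0.63 with 11 of 24 more than 2-fold lower, from Myl9 at -2.21 to Vwf at 0.98. Sertoli cell genes had a median of -0.33 with 5 of 25 more than 2-fold lower, and Rhox5 was the lowest at -2.24. Relative to genes of like length these medians were -0.23, -0.17 and -0.07. Spermatogonia genes had a median of -0.21, from Rhox13 at -2.02 to Ret at 0.85, and spermatid genes -0.17, from Pgk2 at -1.80 to Hook1 at 0.63, and relative to genes of like length these medians were 0.06 and 0.25. Of 5 blood genes, only Alas2 passed, at -0.91.

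Large gene families gave a view of mRNAs of mixed length. Zinc finger genes named Zfp had a median of -0.02 over 308 genes, from Zfp85 at -1.61 to Zfp541, a meiotic regulator, at 1.14. Solute carriers had a median of 0.07 over 246 genes, and Slc25a5, the short mRNA of the mitochondrial ADP/ATP carrier, was the lowest at -1.78. These medians were 0.02 and 0.06 relative to genes of like length.

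**Figure D5:**
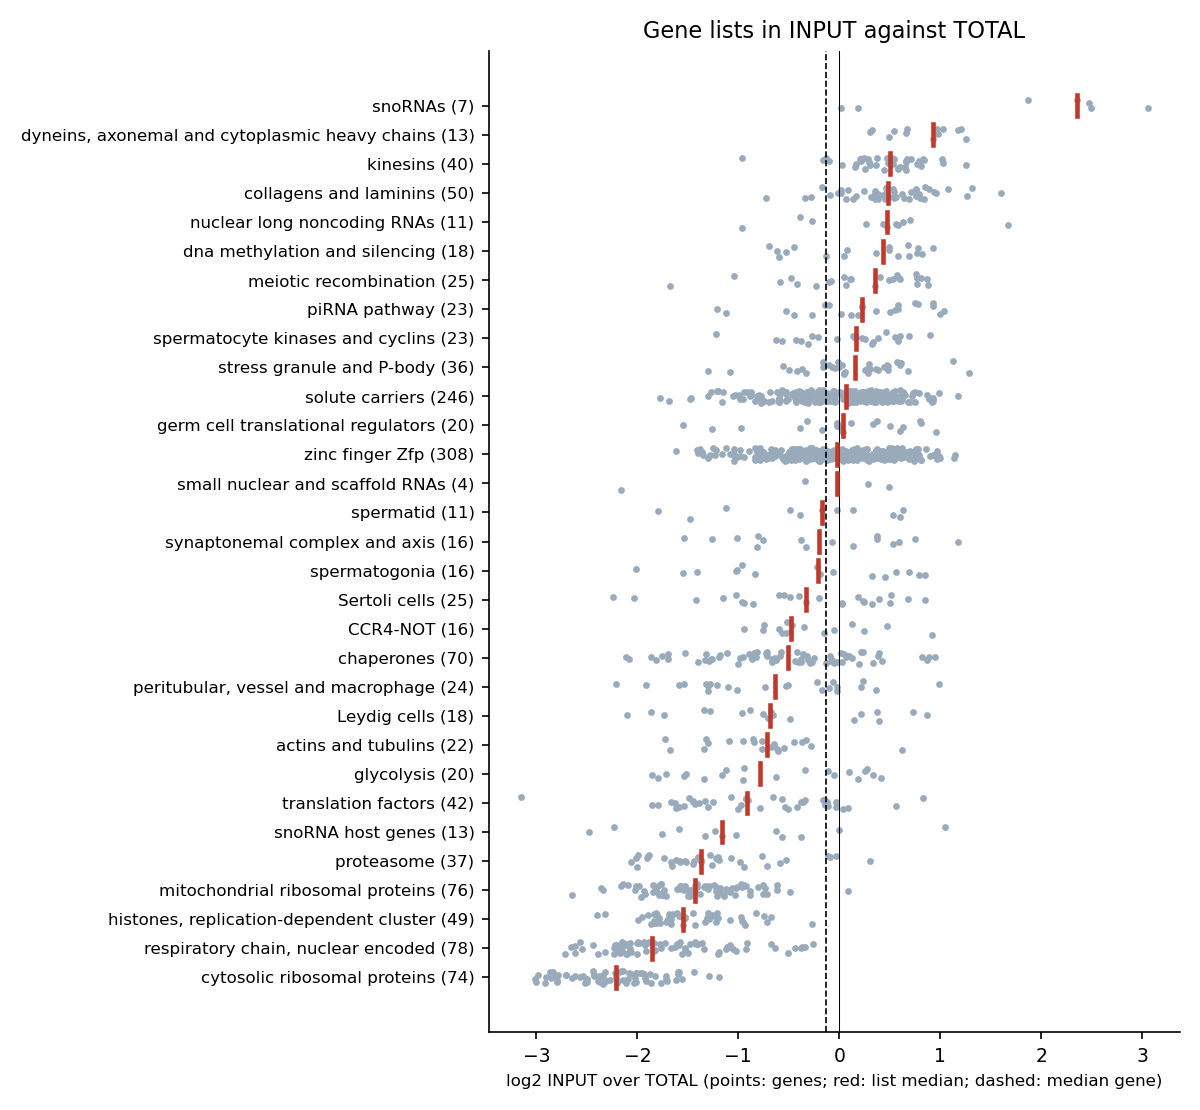
log2 ratio of INPUT over TOTAL (horizontal axis) of the genes (points) of each list, with the list median (red bar), the number of genes passing the filter in brackets, and the median gene (dashed line at -0.13). Cytosolic ribosomal protein genes lie lowest, at a median of -2.22, and snoRNA genes, 5 of whose 7 are Scarna genes, lie highest. Without the filter on IP the snoRNA median is 0.14 over 23 genes, below that of dyneins (0.93).

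Scarna genes had high ratios although their RNAs are short. Scarna6, printed above, went from a TOTAL mean of 561 to an INPUT mean of 4666, the highest ratio of all genes (3.06). Scarna10, also printed above, went from 1500 to 8405 (ratio 2.49), Scarna2 from 239 to 1311 (ratio 2.47), Scarna13 from 329 to 1682 (ratio 2.35) and Scarna9 from 75.1 to 272 (ratio 1.87). These RNAs guide chemical modification of spliceosomal RNAs in Cajal bodies. They were the 5 that passed of 9 Scarna genes listed, and 4 of the 5, all but Scarna13, hold TGATGA. Grouping the Scarna genes by themselves was done after seeing the data.

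Few of the other guide RNAs passed the filters. Of 105 listed snoRNA and Scarna genes, 7 passed, and the other 2 were Snord17 at 0.01 and Snora28 at 0.19. Without the filter on IP, 23 had a direct ratio, with a median of 0.14, and 6 of these were more than 2-fold higher, all of them Scarna genes, where 2.29% of all genes were. 1 of the 23 was more than 2-fold lower, where 17.4% of all genes were. The 11 Snora genes then had a median of -0.22 and the 6 Snord genes 0.09. Host genes of snoRNAs, whose spliced transcripts are noncoding, had a median of -1.16, from Snhg8 at -2.48 to Snhg11 at 1.04 (median -0.20 relative to genes of like length).

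Other small RNAs counted as genes had ratios of either sign. Rpph1, the RNA of ribonuclease P, had the highest TOTAL mean of all genes that passed, with 134155 in TOTAL and 30116 in INPUT (ratio -2.16). Rmrp, the RNA of the related ribonuclease MRP, changed from 41961 to 33457 (ratio -0.34). Vaultrc5, the RNA of the vault, a very large cytoplasmic particle, had a TOTAL mean of 430 and an INPUT mean of 3102. It had too few IP reads for the filter (IP mean 4.96), and its direct ratio was 2.85. Terc, the RNA of telomerase, had a direct ratio of -0.72. The minor spliceosome RNAs Rnu11 and Rnu12 had ratios of 0.50 and 0.29. Of the list of 8 such small nuclear and scaffold RNAs, 4 passed, with a median of -0.02.

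Long noncoding RNAs of the nucleus had a median of 0.48, with 8 of 11 above 0, where 43.0% of all genes were. More than 2-fold higher was 1 of 11, where 2.27% of all genes were. The list median was -0.02 relative to genes of like length, and 5 of 11 were above 0, where 49.9% of all genes were. Firre, a repeat-rich RNA of the X chromosome, went from 348 to 1114 (ratio 1.67), and Pvt1 was the lowest at -0.96. Malat1 and Neat1, RNAs of nuclear speckles and paraspeckles, were at 0.43 and -0.38.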

How the data were processed

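RNA of TOTAL and INPUT samples from Mael-/- testes was analysed from the processed files. Repeat reads had been aligned by the authors (STAR 2.6.0c, mm10), reassigned where ambiguous (Telescope), summed per subfamily and brought to an equal 75th percentile (EBSeq), so the deposited signal is a normalized count per library. Each value was a whole multiple of 1 step (100% of values, tolerance 0.1 reads), which gave the reads. For genes, the deposited signal is the authors' mean normalized count per group (DESeq2 1.24.0). The counter and annotation are not given in the sources used here. The fold changes and p-values of the authors' own comparisons were not used.

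Of the subfamilies, those whose mean across all 12 libraries reached 10 went into limma 3.58.1 (R 4.3.3) on log2(value + 1), with trend, no block and Benjamini-Hochberg adjustment over all 1180. Fold changes are on that log2(value + 1) scale, which understates changes of low names. edgeR 4.0.16 on the reads, other scalings and filters, and omitted libraries were alternatives. The fit of INPUT against TOTAL was tried on data simulated for 1180 subfamilies. It recovered 98% of names changed by 1.5 log2 units and 100% of those changed by 3, with 1 false call. These rates hold for the simulated spread only and do not give the power for names that varied widely between libraries. HY1 (-2.73 ± 1.07 SE) and HY3 (-2.77 ± 1.18 SE) were not called in the main limma test. Same-numbered TOTAL and INPUT libraries deviated together from their group means (r = 0.63, 0.34 and 0.32), while unlike-numbered ones of replicates 2 and 3 correlated at 0.33 and 0.24. The numbers come from the labels, and they were taken to pair the samples since every same-numbered pair was above 0.1. The unlike-numbered pairs of replicates 2 and 3 were above 0.1 too, so the correlations set apart replicate 1 only. Results with the replicate block therefore rest on the labels for replicates 2 and 3. Rows of reads without a gene were left out, of which multiply mapped reads averaged 4855080 in TOTAL and 1721930 in INPUT. Gene names matched GENCODE M21 for 20708 of 20981 genes, of which 19888 matched directly.

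Named subfamilies were a fixed panel, the called ones, and others chosen after their values were seen. Named genes were the 10 highest and 10 lowest ratios with means above 100, the extremes of each of 33 lists, Actb, Gapdh and Mael, and a few chosen after their values were seen. Some named genes are not reported here. The mitochondrially encoded genes had no row in the tables used here. Members and lists were chosen with earlier results of these data known.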

Additional observations from a re-analysis of the deposited data

How the results depend on the processing

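Of the results that answer a comparison, 364 values stayed close to the main value under an alternative, 25 moved and 4 reversed. For counts and list medians, close meant within 1.5-fold. For shares and ratios within libraries, it meant a shift smaller than the larger group SD. Of single names, 1300 stayed the same, 43 became stronger, 18 weaker and 49 reversed; the cause was not tested. Scaling had the greatest reach. With library totals, 637 subfamilies were called higher (515 of them transposable elements) and 0 transposable elements lower. The 5 names called lower there were 7SK, and gained as calls 7SLRNA (-1.30, limma adjusted p = 0.021), HY1 (adjusted p = 0.014), HY3 (adjusted p = 0.019) and tRNA-Ser-TCA(m). Log2 fold changes turned positive for U2 (0.59), U3 (0.17), U4 (0.43), U5 (0.58), U6 (1.001), LSU-rRNA_Hsa (0.59), SSU-rRNA_Hsa (0.47), L1Md_A (1.003), L1Md_T (0.89), L1Md_Gf (0.61), L1Md_F (0.62), L1Md_F2 (0.73), B1_Mm (0.99), B2_Mm1t (0.038), B2_Mm2 (0.69), RLTR10 (0.77), ORR1A0 (0.95), GSAT_MM (0.65), MLT2B5 (0.008), RMER6C (0.53), RMER6D (0.41) and RLTR21 (0.43). The count called lower was 2 with no filter and 7 with totals over transposable elements. For transposable elements alone it was 4 with those totals, 2 with the median ratio and 3 with edgeR. With the replicate block it was 2, and in a fit of the 6 libraries with a replicate block 4, against 17 of all subfamilies. Leaving out libraries gave 0 to 2 subfamilies called higher, 2 to 6 lower, and 0 to 2 and 1 to 2 among transposable elements. Without TOTAL replicate 1 there were 2 called higher, and without INPUT replicate 2 there were 2 called lower.

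Log2 fold changes that changed sign when libraries were left out ranged from -1.15 to 0.022 for U2, -1.54 to 0.12 for U4, -1.87 to 0.89 for U5, -0.23 to 0.29 for U6, -1.40 to 0.39 for LSU-rRNA_Hsa, -1.88 to 0.57 for SSU-rRNA_Hsa, -0.19 to 0.16 for L1Md_A, -0.33 to 0.065 for L1Md_T, -0.057 to 0.012 for B1_Mm, -0.17 to 0.16 for ORR1A0 and -0.53 to 1.008 for 4.5SRNA. Differences of shares did so for ribosomal RNA names (-1.33 to 5.84 percentage points), small nuclear RNA names (-0.568 to 1.35) and Y RNA, BC1 and 4.5S names (-0.394 to 0.0691).

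Genes more than 2-fold higher numbered 615 when centred on the median gene and 904 with upper quartile scaling. Those more than 2-fold lower were 2294 of 13608 genes (16.9%) in the main setting. They numbered 1406 of 9682 (14.5%) with means above 100 and 797 of 13528 (5.89%) relative to genes of like length. Relative to such genes, list medians were -1.002 for cytosolic and -0.65 for mitochondrial ribosomal proteins, -0.45 for the respiratory chain, -0.48 for the proteasome, 0.00 for histones, -0.20 for snoRNA hosts, 4.04 for snoRNAs, 1.67 for small nuclear and scaffold RNAs, 0.54 for the synaptonemal complex and 0.32 for dyneins. The snoRNAs and the small nuclear and scaffold RNAs had median lengths of 265 and 216 bases. Their length group also held longer mRNAs, such as Rps29 of 461 bases and 2410015M20Rik of 788, so lengths there were not closely alike. Without the filter on IP the snoRNA median was 0.14, and with the median transcript Pearson's r with length was 0.376. Gene ratios rest on group means, so no library could be left out there.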
